A study of Mus musculus with 18 samples.

Results

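The GIMAP genes encode the GTPases of immunity-associated proteins, a family of small GTP-binding proteins found mainly in lymphocytes. Members measured here were Gimap1, Gimap3, Gimap4, Gimap5, Gimap6, Gimap7, Gimap8 and Gimap9, found in the count table by their Entrez Gene IDs. They are 8 of 27179 genes in the table, and all 8 were among the 12798 genes that passed the filter on low counts (at least 0.5 CPM, read counts scaled to a common library size, in at least 3 samples). Expression was measured by RNA sequencing in 18 samples of sorted CD69+ thymocytes. Each of 3 WT, 3 HoilΔCd4 and 3 Sharpincpdm mice gave 1 MHC I low and 1 MHC I high sample. CD69 appears on thymocytes after signalling through the T-cell receptor. Surface MHC I increases with maturation, which makes the MHC I low cells the earlier and the MHC I high cells the later fraction. In all 6 groups the sort left out dead cells, cells with surface CD25 or CD44, and cells with surface markers of natural killer, B, myeloid or γδ T cells. WT mice were C57BL/6. In HoilΔCd4 mice a floxed Rbck1 gene, which encodes HOIL-1, is deleted by Cre expressed from Cd4, so that the loss is limited to the T-cell lineage, and the floxed strain came from 1 embryonic stem cell clone. Sharpincpdm mice carry the spontaneous cpdm mutation of Sharpin in all cells. These mice came from C57BL/Ka with few crosses to C57BL/6, so strain and genotype cannot be told apart in comparisons with them. Mice of both sexes were used, and the sample labels give no ages.

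GIMAP proteins share a GTPase domain and sit, for most members, on intracellular membranes such as those of the endoplasmic reticulum, Golgi, mitochondria and lysosomes. They are known above all for the survival of lymphocytes. Loss of Gimap5 in mice and rats leaves few peripheral T cells, and Gimap1 is needed to keep mature B and T cells. GIMAP proteins have been reported to bind members of the Bcl-2 family and, for GIMAP6, the autophagy protein GABARAPL2. HOIL-1 and SHARPIN belong to the linear ubiquitin chain assembly complex, which acts upstream of NF-κB. The comparisons ask how the family changes between the earlier and later fraction, and whether loss of HOIL-1 or SHARPIN alters it.

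The 8 genes lie side by side on chromosome 6, within 123.7 kb (GRCm38, chr6:48647186-48770851). From one end to the other they follow the order Gimap8, Gimap9, Gimap4, Gimap6, Gimap7, Gimap1, Gimap5 and Gimap3, with Gimap6 and Gimap3 on the minus strand and the rest on the plus strand. Coding sequences of most pairs were between 44.5% and 65.1% identical over their aligned bases. Gimap3 and Gimap5 stood apart, with 87.9% identity over 905 aligned bases. The longest stretch of coding sequence that both share without a mismatch is shown because reads from it cannot be assigned to one gene. It covers 140 bases, at chr6:48765681-48765820 on the minus strand in Gimap3 and chr6:48752684-48752823 on the plus strand in Gimap5 (GRCm38, read 5′ to 3′).
Gimap3 and Gimap5 shared coding stretch: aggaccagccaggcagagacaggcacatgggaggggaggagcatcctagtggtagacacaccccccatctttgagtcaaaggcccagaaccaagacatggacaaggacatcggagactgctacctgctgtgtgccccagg
Over the whole transcripts, 83 of the 2503 distinct words of 75 bases (the read length) in Gimap3 were also in Gimap5, which is 3.32% of Gimap3 words and 4.42% of Gimap5 words. Gimap4, Gimap6, Gimap8 and Gimap9 shared no such word with any other gene. In the GENCODE annotation, exons of the antisense gene Gimap1os cover 1107 of the 3073 exonic bases of Gimap1 (36.0%). The Gimap1 model used for counting has only 1505 exonic bases. Exons of the predicted gene Gm28053 overlap those of Gimap1, Gimap5 and Gimap7. Of the 1782 distinct words in coding transcripts of Gimap1, 140 (7.86%) were also in another gene. Among them, 57 matched Gimap1os on the other strand and 124 matched Gm28053. How the counting treated strand and reads that match several genes is not given in the sources used here, so Gimap3 and Gimap5 counts, and Gimap1 counts, are uncertain to that extent.

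Promoter sequences (RefSeq, GRCm38.p6, the 250 bases before the annotated start) are shown for the 3 members with the largest rise between fractions and for the member that fell in all genotypes. Capitals mark matches, on either strand, to the short motifs searched. The annotated start used for Gimap9 lies past the first base of the gene (chr6:48676121). The end of its window, with the marked CACCC, therefore lies within the gene.
Gimap3, chr6:48770852-48771101, minus strand: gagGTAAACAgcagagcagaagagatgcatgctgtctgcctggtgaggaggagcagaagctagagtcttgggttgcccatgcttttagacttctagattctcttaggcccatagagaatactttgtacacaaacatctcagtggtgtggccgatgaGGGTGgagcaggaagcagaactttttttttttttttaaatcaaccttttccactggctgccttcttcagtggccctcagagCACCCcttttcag
Gimap4, chr6:48684328-48684577, plus strand: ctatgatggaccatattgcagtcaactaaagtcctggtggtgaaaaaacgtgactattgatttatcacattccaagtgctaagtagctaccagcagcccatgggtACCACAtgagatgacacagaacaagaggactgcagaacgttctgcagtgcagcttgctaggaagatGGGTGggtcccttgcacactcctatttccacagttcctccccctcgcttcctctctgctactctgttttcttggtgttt
Gimap7, chr6:48718371-48718620, plus strand: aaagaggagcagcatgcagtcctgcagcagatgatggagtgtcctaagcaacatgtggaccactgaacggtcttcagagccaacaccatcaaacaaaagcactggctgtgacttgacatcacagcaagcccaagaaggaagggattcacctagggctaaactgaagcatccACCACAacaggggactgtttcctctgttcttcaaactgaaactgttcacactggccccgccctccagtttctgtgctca
Gimap9, chr6:48675885-48676134, plus strand: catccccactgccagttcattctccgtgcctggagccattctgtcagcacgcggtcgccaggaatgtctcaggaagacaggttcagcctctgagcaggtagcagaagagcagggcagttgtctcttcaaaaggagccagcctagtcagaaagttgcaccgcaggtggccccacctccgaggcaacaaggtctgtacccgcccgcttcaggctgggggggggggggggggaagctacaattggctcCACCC
The motif TGTGGT, bound by RUNX factors, was present in the promoters of Gimap1, Gimap4 and Gimap7 and in 14.0% of all 32851 promoter windows. TGTTTAC, bound by FOXO factors, was present in Gimap3 and in 3.17% of all windows. CACCC, bound by KLF factors, was present in Gimap3, Gimap4, Gimap5, Gimap8 and Gimap9 and in 52.0% of all windows. TATAAA, the letters of the TATA box, was present in Gimap6 and in 12.4% of all windows. The Gimap6 match was on the strand opposite to the gene, at −219 to −214 relative to the start. No GIMAP window held the κB consensus, present in 3.90% of all windows, CCGGAAG (ETS factors, 6.91%) or TGGGAA (RBPJ, 21.6%). Such matches describe the letters only, and the windows searched were 9 because Gimap8 has 2 annotated starts.

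Libraries held between 10577966 and 16266128 reads assigned to genes. The fewest reads behind a member's value were 276, for Gimap7, where counting error alone is 6.02%, and the lowest for Gimap8 was 7055 reads (1.19%). Replicates are separate mice. The HoilΔCd4 MHC I low sample of mouse 2 had the lowest quality weight (0.628) in the model. Rbck1 was 222.5 ± 6.08 CPM in WT MHC I low cells and 0.544 ± 0.256 CPM in HoilΔCd4 MHC I low cells (SD, n = 3 each), and reached 5.72 ± 2.81 CPM in HoilΔCd4 MHC I high cells. Sharpin itself was 91.3 ± 5.76 CPM in WT and 71.5 ± 4.49 CPM in Sharpincpdm MHC I low cells. H2-K1, one of the MHC I genes, was 215.6 ± 5.87 CPM in the MHC I low and 2003 ± 27.0 CPM in the MHC I high cells of WT mice. Summed T-lineage markers (7 genes) lay between 3812 and 5709 CPM in every sample. Summed markers ranged from 23.99 to 34.6 CPM for myeloid cells (8 genes, with Itgam up to 8.13 and Csf1r up to 0.475 CPM) and from 6.03 to 11.9 CPM for thymic epithelium (6 genes, mostly Epcam, with Foxn1 at most 0.0676 CPM). The sum of the natural killer list (7 genes) was lower in the later WT fraction (262.7 to 290.1 against 126.0 to 144.6 CPM) through Gata3, which T cells also express (means 271.2 and 89.8 CPM), while Nkg7 (1.04 and 40.2 CPM) and Eomes (1.13 and 3.30 CPM) were higher there and Ncr1 was at 0 in all samples. The endothelial list (6 genes) was higher (WT 128.0 to 153.8 against 163.6 to 179.7 CPM), most of it Pecam1, with Cdh5 at most 0.384 CPM. Genes of γδ T cells were present, and Trdc was 12.5 ± 1.82 CPM in the earlier and 26.3 ± 2.87 CPM in the later WT fraction, while Sox13 was 13.4 ± 3.38 and 3.46 ± 0.926 CPM. The γδ sum (4 genes) in MHC I high cells was 29.1 to 36.2 CPM in WT and 43.7 to 62.8 CPM in HoilΔCd4 mice, without overlap. Sharpincpdm mice (33.7 to 39.9 CPM) overlapped WT there. In MHC I low cells both mutants lay above WT (23.3 to 32.5 CPM) without overlap, at 34.6 to 40.6 CPM in HoilΔCd4 and 33.8 to 49.4 CPM in Sharpincpdm mice. Means of Sox13 in these cells were 22.2 CPM in HoilΔCd4 and 25.9 CPM in Sharpincpdm mice. Markers of double-positive thymocytes before selection (6 genes) summed to 410.0 to 441.9 CPM in the earlier and 495.2 to 589.7 CPM in the later WT fraction, with Cd8b1 higher (means 99.2 and 336.0 CPM) and Rag1 lower (163.3 and 84.7 CPM). In MHC I high cells of the mutants the sum was 537.5 to 829.8 CPM in HoilΔCd4 mice (Rag1 mean 149.3 CPM) and 566.4 to 709.7 CPM in Sharpincpdm mice, and both overlapped WT. In MHC I low cells neither mutant overlapped WT. The sum there was higher in HoilΔCd4 mice (453.0 to 524.6 CPM) and lower in Sharpincpdm mice (351.5 to 387.8 CPM). Within the T lineage the fractions differed, since Cd8a was 231.2 ± 11.7 CPM in the MHC I low and 777.9 ± 43.8 CPM in the MHC I high cells of WT mice, and Cd4 was 833.4 ± 17.9 and 716.5 ± 36.5 CPM. Means of Cd8a in the earlier and later fraction were 245.4 and 764.6 CPM in HoilΔCd4 and 215.2 and 947.9 CPM in Sharpincpdm mice, whose MHC I high values all lay above those of WT mice. Cd4 had means of 976.0 and 824.6 CPM in HoilΔCd4 and 922.3 and 729.8 CPM in Sharpincpdm mice, and in the earlier fraction both mutants lay above WT without overlap. Summed markers of mature single-positive thymocytes (6 genes) were 726.1 ± 12.2 and 1557 ± 48.2 CPM in WT mice. In HoilΔCd4 mice they were 625.3 ± 21.2 and 1350 ± 15.4 CPM, below WT without overlap in both fractions. Those of Sharpincpdm mice were 849.9 ± 13.7 CPM in MHC I low cells, above WT without overlap, and 1552 ± 89.0 CPM in MHC I high cells, where they overlapped WT. The part of these differences in the GIMAP results was not tested. In sorted bulk samples, fewer cells of a type and less RNA per cell cannot be told apart.

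GIMAP genes were abundant in both fractions. Summed over the 8 genes, they took 2335 ± 144 CPM in the MHC I low and 3408 ± 84.7 CPM in the MHC I high cells of WT mice (SD, n = 3). Sums in HoilΔCd4 mice were 2284 ± 197 and 3257 ± 105 CPM, and those in Sharpincpdm mice 2280 ± 27.6 and 3410 ± 124 CPM. In each genotype every MHC I high sample lay above every MHC I low sample. Per length of exon, Gimap6 was the highest member in WT MHC I low cells, at 402.1 ± 11.5 CPM per kb, followed by Gimap4 at 235.0 ± 28.4, Gimap8 at 193.8 ± 10.6 and Gimap9 at 136.5 ± 8.80 CPM per kb. Gimap1 (76.1 ± 1.59 CPM per kb) and Gimap3 (73.3 ± 12.2) came next and overlapped. Gimap5 (29.8 ± 2.08 CPM per kb) and Gimap7 (20.3 ± 5.21) were lowest. All other neighbours in this order did not overlap among the WT mice. Even Gimap7 stood above 64.3% of tested genes per length, and Gimap6 above 99.5%.

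In WT MHC I high cells the order was different. Gimap4 came first at 499.4 ± 41.3 CPM per kb, above Gimap6 at 397.7 ± 9.89 and Gimap3 at 300.9 ± 7.96 CPM per kb. Gimap8 followed at 208.2 ± 8.27, then Gimap1 (116.0 ± 10.4) and Gimap9 (104.3 ± 7.17), which overlapped, and Gimap7 (42.9 ± 9.77) and Gimap5 (37.8 ± 1.65), which overlapped as well. Gimap3 thus moved from the sixth place to the third. Its share of the summed GIMAP CPM per kb was 6.26% ± 0.726 in the earlier and 17.65% ± 1.03 in the later WT fraction, while the share of Gimap6 was 34.5% ± 1.54 and 23.3% ± 0.552. The same first 4 members, in the same order, were found in both mutants in each fraction, except that Gimap4 and Gimap8 overlapped in HoilΔCd4 MHC I low cells.

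**Figure D1:**
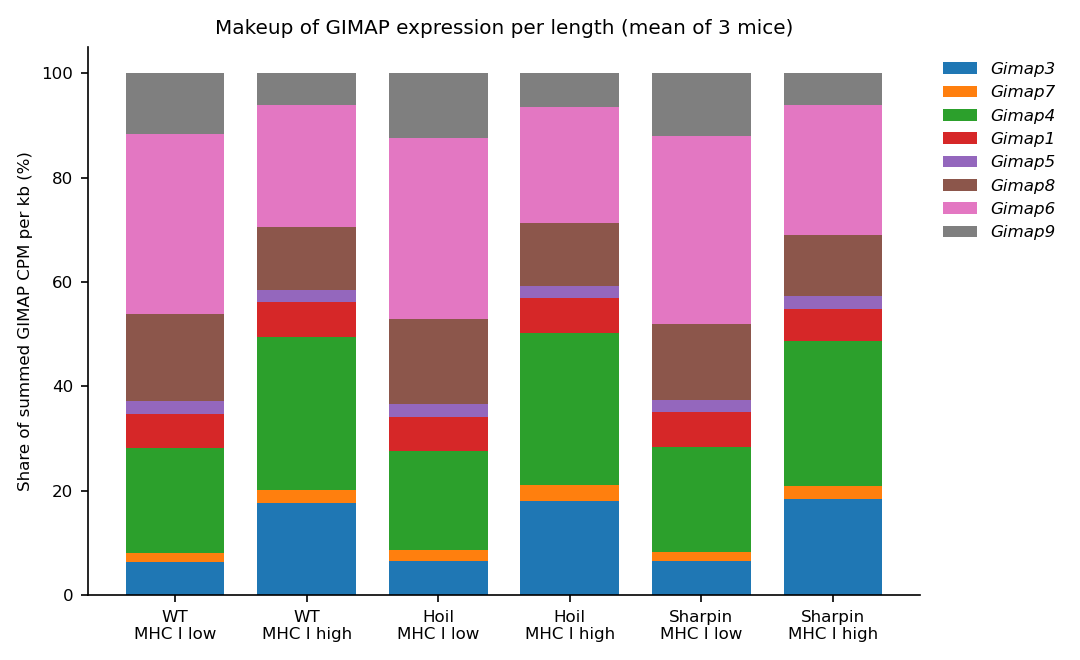
Stacked bars of the share (%) of each GIMAP gene in the summed GIMAP CPM per kb of exon, as the mean of 3 mice, for 3 genotypes and 2 fractions. Gimap3 and Gimap4 take wider parts of the bar in MHC I high cells (Gimap3 17.65% in WT) than in MHC I low cells (6.26%), and Gimap6 and Gimap9 take narrower ones.

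From the earlier to the later fraction most GIMAP genes rose, by amounts that differed from gene to gene. Called genes are those with an adjusted p under 0.05 in limma's test over all 12798 genes. In WT mice 6 members were called higher and 1 lower, where 27.5% of all tested genes were called higher, 26.8% lower and 54.4% in all. In HoilΔCd4 mice 5 were higher and 2 lower (all genes 23.5% higher, 21.7% lower, 45.3% in all), and in Sharpincpdm mice 6 were higher and 1 lower (27.2%, 27.4% and 54.6%). The groups of 3 mice did not overlap between fractions for 6 members in WT mice (52.7% of all genes), 7 in HoilΔCd4 mice (48.9%) and 7 in Sharpincpdm mice (55.8%). The median log2 fold change of the members was 0.48, 0.44 and 0.54 in WT, HoilΔCd4 and Sharpincpdm mice, and that of all tested genes was −0.00, −0.00 and 0.00.

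Gimap3 (chr6:48764464-48770851), a close relative of Gimap5 reported to act in T-cell survival, rose most. It measured 148.5, 186.7 and 136.5 CPM in the MHC I low cells of WT mice 1, 2 and 3, and 664.1, 641.8 and 630.6 CPM in their MHC I high cells. In HoilΔCd4 mice the values were 136.2, 225.5 and 127.5 CPM in MHC I low and 616.3, 660.8 and 608.7 CPM in MHC I high cells. Those of Sharpincpdm mice were 171.0, 155.5 and 165.0 CPM and 727.9, 637.0 and 664.3 CPM. The fractions were far apart in every genotype, and among MHC I low samples mouse 2 of the WT and of the HoilΔCd4 mice stood above its group. Log2 fold changes were 2.06 (SE 0.119, limma adjusted p = 4.173e-09) in WT, 2.03 (SE 0.147, adjusted p = 6.904e-08) in HoilΔCd4 and 2.04 (SE 0.125, adjusted p = 8.076e-09) in Sharpincpdm mice. Within a mouse, the ratio of MHC I high to low ran from 2.93 to 4.77 over the 9 mice, with a median of 4.26. Only 2.31% of tested genes had a larger rise in WT mice.

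Gimap4 (chr6:48684578-48692062), whose loss in mice has been linked to altered death of T cells, approximately doubled. WT mice had 385.4, 483.5 and 407.4 CPM in MHC I low and 833.4, 982.4 and 896.1 CPM in MHC I high cells. HoilΔCd4 mice had 361.8, 470.1 and 349.1 CPM against 851.9, 917.0 and 824.2 CPM, and Sharpincpdm mice 440.6, 409.6 and 419.7 CPM against 922.7, 820.0 and 846.2 CPM. No MHC I high sample came near the MHC I low ones. Log2 fold changes were 1.10 (SE 0.0647), 1.16 (SE 0.0795) and 1.02 (SE 0.0679) in WT, HoilΔCd4 and Sharpincpdm mice, with limma adjusted p of 1.104e-12, 2.462e-11 and 1.01e-11. Ratios within a mouse were tight, from 1.95 to 2.36.

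Gimap7 (chr6:48718621-48724636), whose protein can stimulate GTP hydrolysis by pairing with itself or relatives, changed by a similar fold from a much lower level. In WT mice it measured 21.6, 33.3 and 22.2 CPM in MHC I low and 42.0, 66.8 and 54.6 CPM in MHC I high cells. HoilΔCd4 mice gave 24.3, 35.8 and 32.8 CPM and 49.95, 80.4 and 59.5 CPM, and Sharpincpdm mice 24.2, 23.8 and 25.9 CPM and 56.7, 49.96 and 51.2 CPM. Mouse 2 again stood high in WT and HoilΔCd4 mice, here in both fractions, and the groups did not overlap. Gimap7 rose by 1.11 (SE 0.150), 1.06 (SE 0.185) and 1.09 (SE 0.158) on the log2 scale, with limma adjusted p of 2.136e-05, 0.000279 and 3.918e-05. In WT and HoilΔCd4 mice its spread between mice was the widest of the family, with a coefficient of variation of up to 25.7% (WT MHC I low), apart from Gimap3 in HoilΔCd4 MHC I low cells (33.3%). In Sharpincpdm mice it was 4.67% in the earlier and 6.75% in the later fraction, below that of Gimap5 (5.98% and 8.005%).

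**Figure D2:**
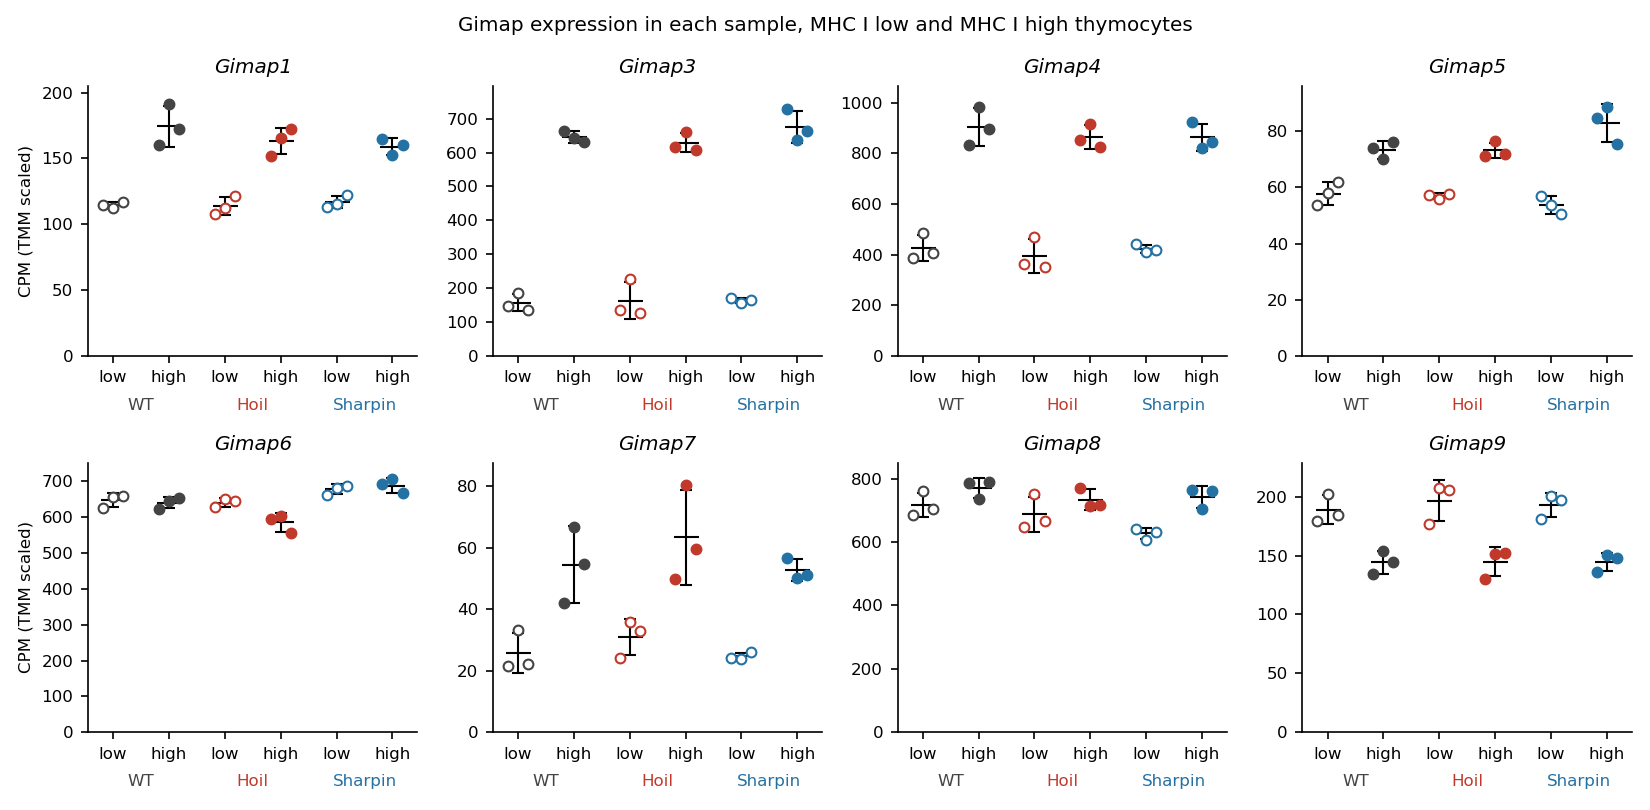
TMM-scaled CPM (linear axis from 0) of each GIMAP gene in each of the 18 samples, with MHC I low samples as open and MHC I high samples as filled circles, and the black marks giving mean and SD of 3 mice. Gimap3, Gimap4 and Gimap7 are well separated between fractions in all genotypes (Gimap3 from 127.5 to 225.5 CPM in MHC I low and from 608.7 to 727.9 CPM in MHC I high cells), Gimap9 is lower in MHC I high cells, and Gimap6 and Gimap8 change little.

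Gimap1 and Gimap5, the members with the clearest requirement in mature lymphocytes, rose less. Gimap1 (chr6:48739047-48743795) lay between 112.1 and 116.8 CPM in the earlier and between 160.0 and 191.1 CPM in the later WT fraction. Its ranges in HoilΔCd4 mice were 107.9 to 121.4 and 152.2 to 172.1 CPM, and in Sharpincpdm mice 113.4 to 122.1 and 152.3 to 164.7 CPM. Fractions did not overlap in any genotype. The log2 fold changes of Gimap1 were 0.59 (SE 0.0489), 0.52 (SE 0.0601) and 0.44 (SE 0.0513), with limma adjusted p of 9.782e-12, 1.376e-08 and 1.404e-08.

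Gimap5 (chr6:48746197-48754200) measured 53.7, 57.95 and 61.8 CPM in the earlier and 74.0, 69.95 and 76.3 CPM in the later WT fraction. In HoilΔCd4 mice it was 57.3, 55.8 and 57.7 CPM and 71.3, 76.4 and 71.9 CPM. In Sharpincpdm mice it was 56.8, 53.8 and 50.4 CPM and 84.8, 88.5 and 75.6 CPM. Every mouse had more in its MHC I high cells, and the Sharpincpdm MHC I low and high values lay farther apart than those of the other genotypes. Gimap5 rose by 0.37 (SE 0.0557), 0.36 (SE 0.0685) and 0.64 (SE 0.0584) on the log2 scale in WT, HoilΔCd4 and Sharpincpdm mice, with limma adjusted p of 1.252e-06, 5.45e-05 and 8.034e-11. Since Gimap3 rose several-fold from a higher level and the genes share the stretch printed above, reads of Gimap3 could be among those counted for Gimap5, and their part in this rise was not tested.

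Gimap8 (chr6:48647186-48660875), the longest member, with several GTPase domains in its protein, changed little. Values in WT mice were 685.5, 760.8 and 704.5 CPM in MHC I low and 787.9, 735.0 and 788.0 CPM in MHC I high cells. Mouse 2 went the other way from mice 1 and 3, and the fractions overlapped. The log2 fold change in WT mice was 0.13 (SE 0.0462, limma adjusted p = 0.0192), a call that was lost without WT mouse 1 (0.06, adjusted p = 0.465) or WT mouse 3 (0.08, adjusted p = 0.407) and with edgeR (0.10, adjusted p = 0.185) or DESeq2 (0.10, adjusted p = 0.177). In HoilΔCd4 mice (646.1, 750.3 and 665.6 CPM against 772.1, 714.1 and 715.9 CPM) the change of 0.10 was not called (SE 0.0568, adjusted p = 0.174), but passed without HoilΔCd4 mouse 2 (0.18, adjusted p = 0.0335) and with the mouse as a fixed block (0.13, adjusted p = 0.0449). Sharpincpdm mice, at 642.6, 607.3 and 631.7 CPM against 764.2, 703.5 and 761.4 CPM, showed no overlap and a rise of 0.23 (SE 0.0485, adjusted p = 0.000138), called in all 21 alternatives.

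Gimap6 (chr6:48701583-48708244), the member reported to act in autophagy, was level between fractions in 2 genotypes. In WT mice it measured 626.8, 657.4 and 660.2 CPM in MHC I low and 623.1, 646.5 and 653.5 CPM in MHC I high cells, which overlapped (log2 fold change −0.00, 95% interval −0.09 to 0.08, limma adjusted p = 0.928). Sharpincpdm mice had 662.9, 683.0 and 688.4 CPM and 691.8, 707.5 and 666.4 CPM (0.03, interval −0.05 to 0.11, adjusted p = 0.552). In HoilΔCd4 mice it was lower in the MHC I high cells of all 3 animals, with 627.5, 650.2 and 645.7 CPM against 595.1, 604.6 and 556.8 CPM. It fell by 0.13 on the log2 scale (SE 0.0482, limma adjusted p = 0.0246), a call lost without the mouse block (adjusted p = 0.0537) and without HoilΔCd4 mouse 2 (adjusted p = 0.0538) or mouse 3 (0.09 fall, adjusted p = 0.268).

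Gimap9 (chr6:48676121-48679116), whose coding sequence is closest to that of Gimap7 (65.1% of aligned bases), was the one member that fell in all 3 genotypes. WT mice had 179.5, 202.6 and 184.3 CPM in MHC I low and 134.1, 153.9 and 144.7 CPM in MHC I high cells. HoilΔCd4 mice had 176.7, 207.3 and 205.8 CPM and 130.3, 151.6 and 152.4 CPM, and Sharpincpdm mice 180.9, 200.7 and 197.0 CPM and 136.1, 150.6 and 147.5 CPM. No MHC I high sample reached the lowest MHC I low sample. Gimap9 decreased by 0.38 (SE 0.0521), 0.43 (SE 0.0640) and 0.41 (SE 0.0546) on the log2 scale in WT, HoilΔCd4 and Sharpincpdm mice, with limma adjusted p of 2.293e-07, 1.976e-06 and 1.903e-07. The ratio of MHC I high to low within a mouse stayed between 0.731 and 0.785 in all 9 mice, while its nearest relative Gimap7 rose in each of them (ratios from 1.82 to 2.46).

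**Figure D3:**
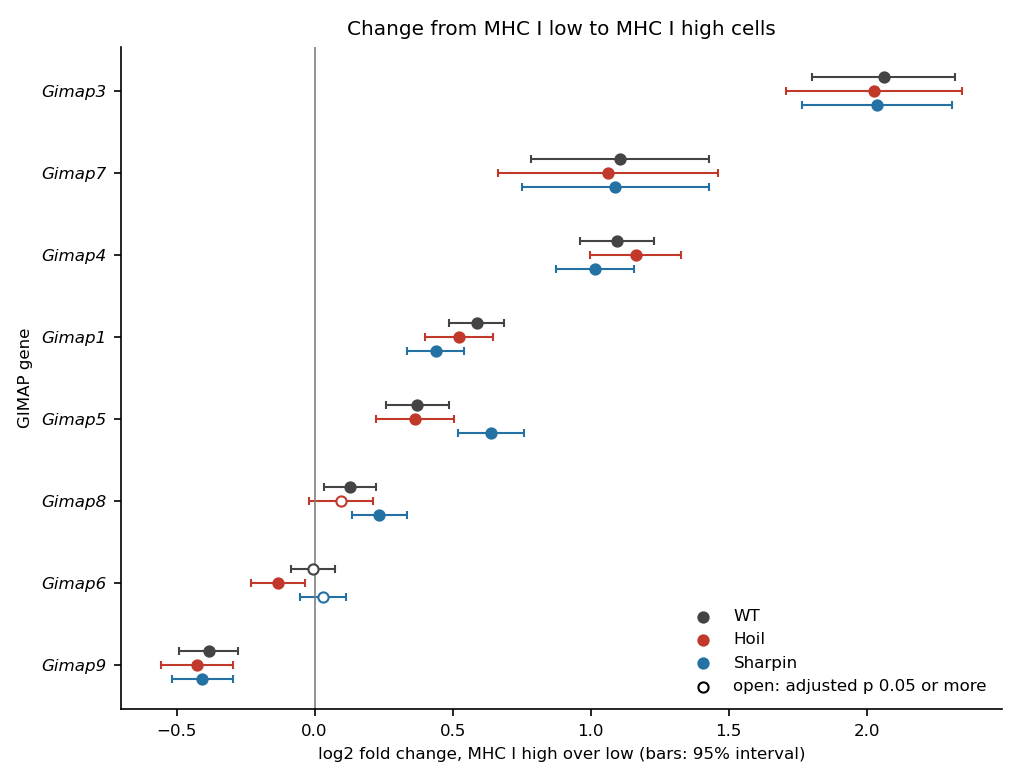
Log2 fold change of each GIMAP gene, MHC I high over MHC I low cells, in WT, HoilΔCd4 (Hoil) and Sharpincpdm (Sharpin) mice, with 95% intervals from limma and open circles for changes with an adjusted p of 0.05 or more. The genotypes give nearly the same ladder, from Gimap3 (2.06, 2.03 and 2.04) to Gimap9 (−0.38, −0.43 and −0.41), and Gimap5 in Sharpincpdm mice lies to the right of the others.

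Position along the cluster did not order the changes. The falling Gimap9 lies between Gimap8 (0.13 in WT mice) and Gimap4 (1.10), and Gimap6, with no call in WT mice, lies between Gimap4 and Gimap7. Genes with the larger rises stand at 41.1 kb (Gimap4), 74.4 kb (Gimap7) and 120.5 kb (Gimap3) from the start of Gimap8 to the middle of the gene. Outside the cluster, 14 of the 23 genes within 500 kb were tested. In WT MHC I high cells 1 was higher, 6 were lower and 7 were not called. Of all tested genes, 27.5% were higher, 26.8% lower and 54.4% called in all. The median log2 fold change of these 14 neighbours was −0.26, and that of all tested genes −0.00. The nearest tested gene on the Gimap8 side, AI854703, fell by 0.56 (SE 0.175, limma adjusted p = 0.00733) from 4.15 ± 0.514 to 2.76 ± 0.0698 CPM. On the Gimap3 side, Tmem176b was not called (−0.29, adjusted p = 0.153) and Tmem176a rose by 0.46 (SE 0.174, adjusted p = 0.0254), from 2.66 ± 0.145 to 3.68 ± 0.119 CPM. In Sharpincpdm mice Tmem176a fell by 0.70 (SE 0.183, adjusted p = 0.00161) and Sspo, the 1 neighbour called higher there, rose by 1.11 (SE 0.410, adjusted p = 0.0239). Sspo had at most 30 reads and 2.88 CPM in any sample. Changes of the GIMAP genes in Sharpincpdm mice ran from −0.41 (Gimap9) to 2.04 (Gimap3).

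**Figure D4:**
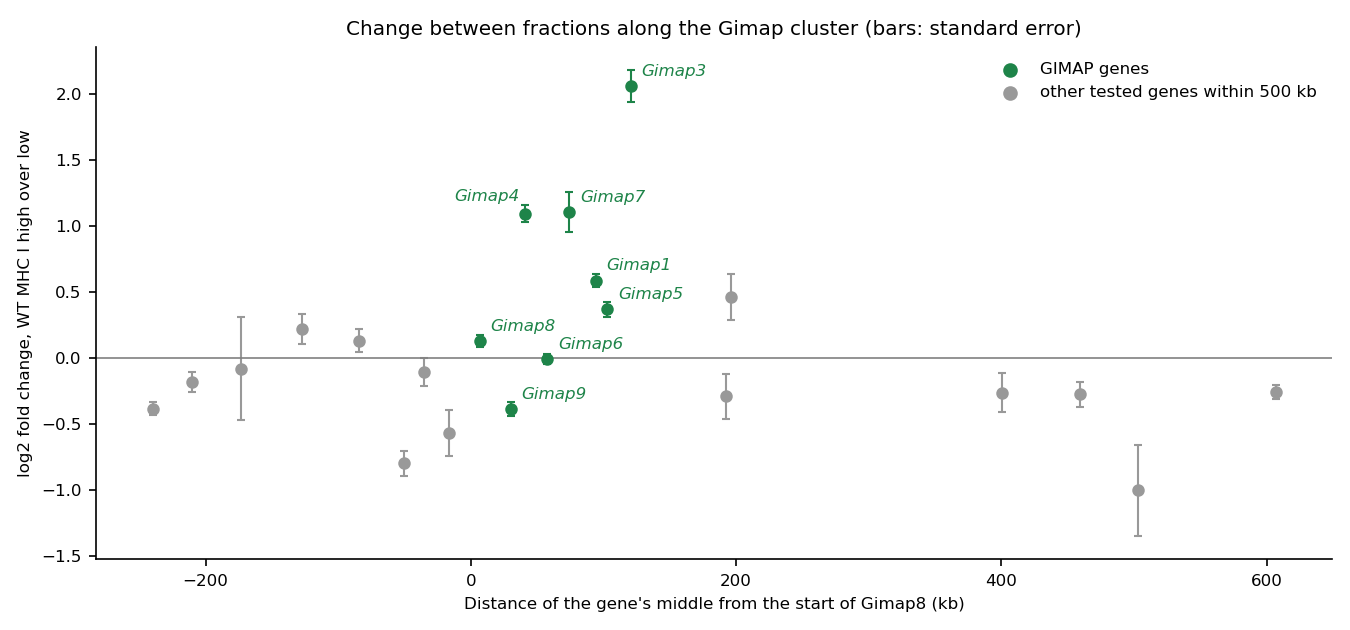
Log2 fold change of MHC I high over MHC I low cells in WT mice (points, with standard error) against the distance of each gene's middle from the start of Gimap8, for the 8 GIMAP genes (green) and the 14 other tested genes within 500 kb (grey). GIMAP genes with rises over 1 (Gimap4, Gimap7 and Gimap3) alternate with Gimap9 (−0.38) and Gimap6 (−0.00), and the highest grey point is 0.46.

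No GIMAP gene was called between HoilΔCd4 and WT mice. In MHC I low cells, 0 of 8 members were called by limma, where 0.985% of all tested genes were called, and 0 had an unadjusted p under 0.05. edgeR and DESeq2 called 0 as well. A count of 0 among 8 genes is near that background. The widest difference was that of Gimap7, at 0.30 on the log2 scale with an interval of −0.13 to 0.73 (limma adjusted p = 0.641), and the values of both genotypes overlapped. Gimap3, at −0.00 (interval −0.35 to 0.34), and Gimap5, at −0.01 (interval −0.16 to 0.14), were next to WT, with intervals that leave room for differences of those sizes. In MHC I high cells 0 of 8 members were called (6.65% of all genes), with 1 at an unadjusted p under 0.05. That member was Gimap6, where the 3 HoilΔCd4 mice (556.8 to 604.6 CPM) lay below the 3 WT mice (623.1 to 653.5 CPM). Its log2 difference was −0.14 (SE 0.0469, limma adjusted p = 0.0642). edgeR and DESeq2 called 0 members here. Gimap6 passed only where genes with fewer than 10 counts in a sample were left out (−0.15, adjusted p = 0.0395), and its adjusted p ranged from 0.0395 to 0.493 over the alternatives. Groups without overlap, with the mutant lower, were found for 9.45% of all tested genes in this comparison.

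Comparisons of Sharpincpdm with WT use the same WT samples. In MHC I low cells, 1 of 8 members was called, where 12.2% of all tested genes were (6.92% lower). Gimap8 was lower, with Sharpincpdm mice at 642.6, 607.3 and 631.7 CPM and WT mice at 685.5, 760.8 and 704.5 CPM. All 3 Sharpincpdm values were below all WT values, as were those of 14.3% of tested genes. The difference was −0.19 on the log2 scale (SE 0.0562, limma adjusted p = 0.0221). It was lost on leaving out WT mouse 2 (−0.16, adjusted p = 0.0741), WT mouse 3 (−0.21, adjusted p = 0.0531), or Sharpincpdm mouse 1 (−0.20, adjusted p = 0.0507), mouse 2 (−0.16, adjusted p = 0.149) or mouse 3 (−0.19, adjusted p = 0.0531). The other 7 members had differences from −0.09 (Gimap5) to 0.08 (Gimap3). Gimap6, at 0.07 (adjusted p = 0.392), was higher in Sharpincpdm mice without overlap (662.9 to 688.4 against 626.8 to 660.2 CPM), as were 15.7% of all tested genes. In MHC I high cells 0 of 8 were called (8.62% of all genes), with 3 at an unadjusted p under 0.05, namely Gimap1 (−0.13, limma adjusted p = 0.135), Gimap5 (0.17, adjusted p = 0.0778) and Gimap6 (0.10, adjusted p = 0.141). edgeR and DESeq2 called 0. Gimap5 passed with Xist, a marker of female cells, as a covariate (0.21, adjusted p = 0.0301).

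**Figure D5:**
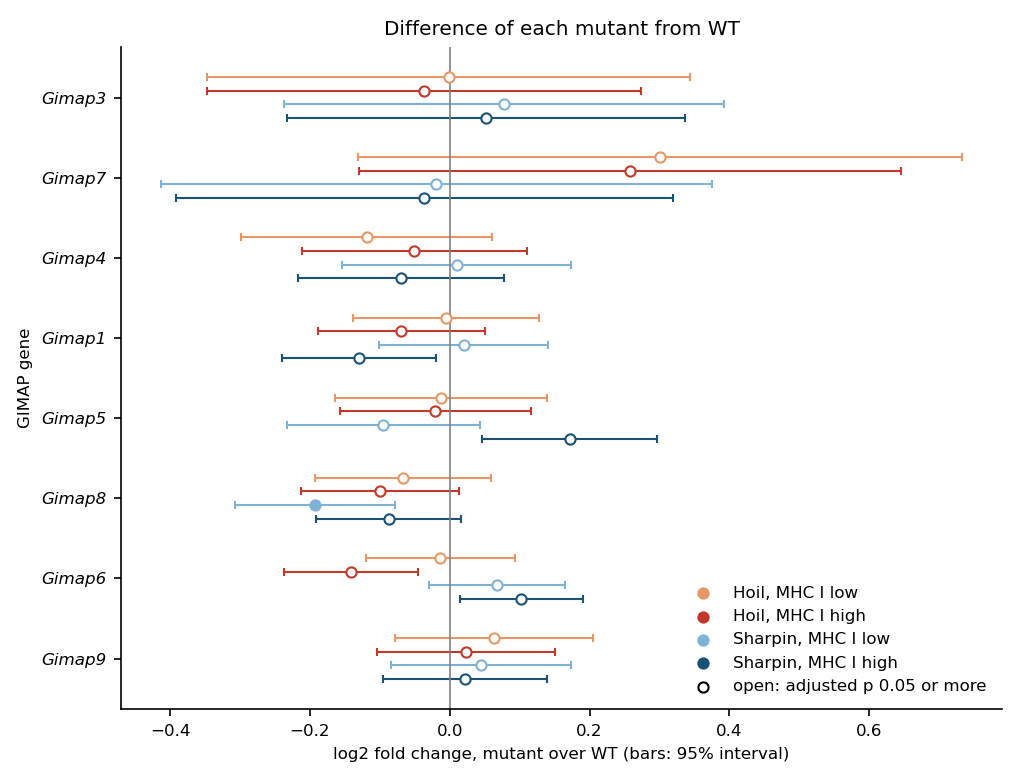
Log2 fold change of each GIMAP gene in HoilΔCd4 (Hoil) and Sharpincpdm (Sharpin) mice over WT, in both fractions, with 95% intervals from limma and filled circles for called genes. All 32 values lie between −0.19 and 0.30, against changes of up to 2.06 between fractions, and Gimap8 in Sharpincpdm MHC I low cells is the only one called.

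Set directly against each other, the mutants differed in Gimap6. In MHC I high cells HoilΔCd4 mice had 595.1, 604.6 and 556.8 CPM and Sharpincpdm mice 691.8, 707.5 and 666.4 CPM, with WT mice in between at 623.1, 646.5 and 653.5 CPM. None of the 3 genotypes overlapped. HoilΔCd4 mice lay below Sharpincpdm mice without overlap for 11.4% of all tested genes, and Sharpincpdm mice above WT mice for 11.5%. The difference between the mutants was −0.24 (SE 0.0476, limma adjusted p = 0.0013), which made Gimap6 the 1 member called of 8, where 6.73% of all tested genes were (3.02% lower), and it was called in all 21 alternatives (adjusted p from 3.376e-05 to 0.0378). Gimap5 missed the threshold at −0.19 (adjusted p = 0.0829) and passed with Xist as a covariate (−0.21, adjusted p = 0.0373). In MHC I low cells 0 of 8 members were called by limma, edgeR or DESeq2 (9.48% of all genes with limma), with 0 at an unadjusted p under 0.05, although Gimap6 was again lower in HoilΔCd4 mice without overlap (627.5 to 650.2 against 662.9 to 688.4 CPM, difference −0.08, limma adjusted p = 0.381), as were 14.2% of all tested genes. Gimap8 was higher in HoilΔCd4 than in Sharpincpdm mice without overlap in these cells (646.1 to 750.3 against 607.3 to 642.6 CPM), as were 13.6% of all tested genes.

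Whether the change between fractions itself differed from WT was tested as an interaction. For HoilΔCd4 mice, 0 of 8 members were called by limma (0.398% of all genes), with 1 at an unadjusted p under 0.05, which was Gimap6 (−0.13, adjusted p = 0.472). edgeR and DESeq2 called 0. For Sharpincpdm mice, 0 of 8 were called (3.13% of all genes), with 2 at an unadjusted p under 0.05. They were Gimap1 (−0.15, limma adjusted p = 0.262) and Gimap5 (0.27, SE 0.0807, adjusted p = 0.0604). edgeR and DESeq2 called 0 members here too. Gimap5 passed in 4 of 21 alternatives, which were scaling by library size only (0.28, adjusted p = 0.0497), leaving out genes with fewer than 10 counts in a sample (0.28, adjusted p = 0.0379), the mouse as a fixed block (0.29, adjusted p = 0.0294) and leaving out WT mouse 1 (0.35, adjusted p = 0.0287). Over all alternatives its adjusted p ran from 0.0287 to 0.276. Differences in change for Gimap3 were −0.04 (interval −0.45 to 0.38) in HoilΔCd4 and −0.03 (interval −0.40 to 0.35) in Sharpincpdm mice.

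Genes of proteins that GIMAP proteins are reported to bind or act on, with near relatives, were more often lower than higher in the later fraction. Of these 12 genes, 2 were higher in WT MHC I high than low cells, 9 were lower and 1 was not called by limma (all tested genes 27.5% higher and 26.8% lower). In HoilΔCd4 mice 1 was higher, 6 were lower and 5 were not called, and in Sharpincpdm mice the counts were 1, 9 and 2. In WT mice the median log2 fold change of the list was −0.23 (−0.00 for all tested genes). Bcl2l11, which encodes the death-promoting protein BIM, fell by 1.35 (SE 0.0521, adjusted p = 6.994e-20), from a mean of 519.0 to 203.4 CPM. Bcl2, which protects from death, fell by 0.47 (SE 0.0449, adjusted p = 2.016e-10), from 455.6 ± 5.30 to 325.3 ± 15.8 CPM, and its relative Bcl2l1 by 0.38 (SE 0.0677, adjusted p = 1.836e-05). Bad, a promoter of death, rose by 0.27 (SE 0.108, adjusted p = 0.0361). Among autophagy genes Gabarapl1 fell by 0.79 (SE 0.134, adjusted p = 1.005e-05), Gabarap rose by 0.33 (SE 0.0830, adjusted p = 0.00113), and Gabarapl2, the reported partner of GIMAP6, was not called (−0.03, adjusted p = 0.721). In both mutants Bcl2l11 was lower than in WT in MHC I low cells, by −0.37 in HoilΔCd4 (SE 0.0695, adjusted p = 0.00234) and −0.41 in Sharpincpdm mice (SE 0.0633, adjusted p = 4.102e-05), where no GIMAP gene other than Gimap8 in Sharpincpdm mice was called.

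Genes of late thymocyte maturation were examined as a second list. All 15 were called between fractions in WT mice, 9 higher and 6 lower (27.5% and 26.8% of all tested genes), and 9 were higher, 5 lower and 1 not called in each mutant. S1pr1, the receptor for exit from the thymus, rose by 6.44 on the log2 scale and Klf2, a transcription factor known to drive it, by 4.31, both above the 2.06 of Gimap3. Itgb7 (2.31), an integrin chain, and Ccr7 (1.20), a chemokine receptor, rose too. Foxo1 (1.68) and Runx3 (1.33), named because motifs of their families were searched, rose by amounts between those of Gimap3 and Gimap4, and Runx1 (−0.31) and Cd5 (−0.68), an inhibitor of T-cell receptor signalling, fell. Il7r, the receptor of the survival cytokine IL-7, fell by 0.44 between fractions and was lower in HoilΔCd4 than in WT mice in both fractions (−0.27 and −0.18) and higher in Sharpincpdm mice (0.27 and 0.26), all called. Among GIMAP genes Gimap8 alone had a call against WT, in Sharpincpdm MHC I low cells. Of 20 other immune GTPase genes, 15 rose, 4 fell and 1 was not called in WT mice (all tested genes 27.5% higher and 26.8% lower). All those that rose belong to interferon-inducible families, such as Tgtp1 (3.24), Tgtp2 (2.68), Irgm2 (1.45) and Gbp8 (0.69), and all those that fell are septins, such as Septin11 (−0.60) and Septin7 (−0.50). The median log2 fold change of that list, 0.91, was beside the GIMAP median of 0.48.

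Genes with the pattern most like that of GIMAP members across the 18 samples were found by Pearson's r of log2 CPM, which is a description and is dominated by the difference between fractions that all of them share. The mean of the 8 standardised members was most like Zp3r (r = 0.963), Pced1a (0.953), Ap5z1 (0.950), Car2 (0.949) and Madd (0.946), of which Zp3r lay at 0.190 ± 0.124 CPM in WT MHC I low cells. Gimap3 was most like Nkg7 (r = 0.994), Rasgrp2 (0.991) and Pik3cd (0.990). Nkg7, a granule gene of cytotoxic cells, rose from 1.04 ± 0.108 CPM in WT MHC I low to 40.2 ± 4.84 CPM in WT MHC I high cells, beside the rise of Cd8a given above. Gimap4 was most like Snai3 (0.987), Nkg7 (0.985) and Lfng (0.985), so that Nkg7 was close to both. Gimap9 was most like Ubtd1 (0.964), Fcsk (0.962) and Scrib (0.957), which all fell between fractions in WT mice (−0.94, −0.68 and −0.68). For Gimap6, which hardly changed between fractions, the best value was lower (Trappc1, 0.822).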

How the data were processed

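Thymocytes were sorted by the authors, sequenced as single-end reads of 75 bases, mapped to mm10 with the subread aligner and assigned to genes by featureCounts with its inbuilt RefSeq annotation. The deposited values are raw read counts, 1 file per sample. Tool versions and the settings for strand and multiply matching reads are not given in the sources used here. CPM were computed from the deposited counts with TMM factors (0.9873 to 1.015).

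The model of the study's methods was followed. One limma model of the 6 groups was fitted to log2 CPM (prior count 1) of all 18 samples, with sample quality weights (0.628 to 2.42), the mouse as a random block, an abundance trend and robust empirical Bayes, and Benjamini-Hochberg adjustment over 12798 genes. Chromosome Y genes, Xist and predicted genes were removed. R 4.3.3, limma 3.58.1, edgeR 4.0.16 and DESeq2 1.42.0 were used. Both fractions of a mouse come from 1 animal, and within each of the 9 mice the deviations from group means were correlated (r from 0.0703 to 0.256). Between mice of different genotypes that share a number, in the same fraction, r ran from −0.0314 to 0.153. The values within WT mice (0.0703, 0.149 and 0.119) lay inside that range. No replicate pair agreed within sampling noise (chi-square over its degrees of freedom, 3.97 to 14.2). The members, gene lists, motifs and naming rule were chosen with earlier results of these data known. All members were named, together with checks, neighbours and examples from each list. The examples were picked in each direction by adjusted p and not by size of change. Foxo1, Runx3, Gabarapl2, Nkg7, Cd8a and Cd4 were described after their values were seen. Marker lists of myeloid, natural killer, endothelial, thymic epithelial and γδ T cells and of thymocyte stages were summed. A further marker list is not reported here. Transcripts and coding sequences came from GENCODE M21 (GRCm38) and protein sequences were not used here, so coding identity (global alignment) took the place of a planned protein comparison. On simulated counts of 12798 genes, limma recovered 82% of 1.5-fold and 97% of 3-fold changes in the WT comparison of fractions, and 78% and 97% for HoilΔCd4 against WT in MHC I low cells, where 5.91% of calls were unchanged genes. The simulated samples had no mouse effect, and only 100 genes were changed at each size. In the data 54.4% of genes were called between WT fractions, so these rates need not hold there.

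Alternatives were edgeR, DESeq2, library-size scaling, no filter, at least 10 counts, predicted genes kept, no weights, no block, a fixed block (the mouse for changes between fractions, and the mouse number, shared by genotypes, beside the random block for comparisons between genotypes), only the compared groups, a larger prior count, a covariate for Xist, and leaving out each mouse.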

Additional observations from a re-analysis of the deposited data

How the results depend on the processing

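Each of the 88 results for a member in a comparison was recomputed under 21 alternatives. Of these 1848 values, 1825 kept direction and side of the threshold or changed sign without a call in either fit (98 values, in results no larger than 0.08 on the log2 scale), 14 lost a call, 9 gained one and 0 reversed a call. The number of members called for the Sharpincpdm change between fractions against WT became 1 in place of 0 with scaling by library size only, with at least 10 counts in every sample, with a fixed replicate block and, on leaving out each mouse, ranged from 0 to 1. For HoilΔCd4 against WT in MHC I high cells it became 1 with at least 10 counts. For Sharpincpdm against WT in MHC I high cells it became 1, and for HoilΔCd4 against Sharpincpdm in MHC I high cells 2, with Xist as a covariate. For Sharpincpdm against WT in MHC I low cells it ranged from 0 to 1 over the left-out mice. Without the replicate block 1 call was lost (Gimap6 in HoilΔCd4 mice), and with the fixed replicate block 2 were gained (Gimap5 and Gimap8, above). No filter (0.13, limma adjusted p = 0.0513) and no sample weights (0.10, adjusted p = 0.115) also ended the Gimap8 call in WT mice. The cause of these changes was not tested. With 3 mice a group, intervals of mutant differences reached from 0.09 to 0.43 on either side on the log2 scale, which limits what could be seen.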
